A study of Drosophila melanogaster with 2 samples.

Results

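The translation initiation factor genes of Drosophila melanogaster were examined for peaks of GFP-tagged tup, a LIM-homeodomain factor of the Islet class named tailup in full. The members were the protein-coding genes of the Ensembl BDGP6 annotation whose symbol begins with eIF and a digit, 44 of 13968 protein-coding genes. Chromatin immunoprecipitation with sequencing (ChIP-seq) had been done with an antibody to GFP on whole embryos aged 0 to 24 h, males and females together, in 1 group of 2 biological replicates. Both replicates came from a transgenic line with a stable tup transgene that carries GFP at its C terminus. The sequence that drives the transgene is not given in the sources used here, and each library mixes all cell types of the embryo.

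The lists gave peaks in dm6 coordinates. The authors' optimal list, cut by their test of reproducibility between replicates, held 2241 peaks with a caller's signal from 68.7 to 1283. The candidate list called on the pooled replicates held 30000 peaks with a median signal of 27.3, and each replicate list held 30000 as well. The optimal start peaks of members held the same rank by signal in the optimal and the pooled list. A place in the optimal list thus does not show that a peak was found in each replicate. Median signals were 20.8 in replicate 1 and 11 in replicate 2, so signals are read within a list and ranks are given for each replicate. The lists hold no read totals, so the depth is unknown. There is no second group, and no test between conditions exists. Counts of members are set beside the same count over all protein-coding genes.

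Initiation brings the small ribosomal subunit, the initiator tRNA and an mRNA together. The factor eIF2 carries the initiator tRNA as a GTP-bound complex and is recharged by the exchange factor eIF2B. The eIF4 factors bind the mRNA cap and unwind the leader, eIF3 is the multi-subunit scaffold on the small subunit, and eIF1, eIF1A and eIF5 act in choosing the start codon. Control of these steps sets the rate of protein synthesis in most cells, and in the early fly embryo cap-binding repressors also shape where patterning proteins are made.

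An optimal tup-GFP summit lay within 1 kb of an own transcript start in 8 of the 44 genes (18.2%, Wilson 95% interval 9.51 to 32.0), against 13.3% of all protein-coding genes. The 8 were eIF1, eIF2A and eIF2gamma of the 43S complex and start codon group, eIF2Bbeta of the exchange factor, eIF3a and eIF3c of the scaffold, the cap-binding repressor gene eIF4EHP, and eIF6, whose product keeps free large ribosomal subunits from joining small ones. The share over all genes lies inside the members' interval. Intervals cover counting error only. Taking the whole region from 5 kb upstream to the gene end added eIF5B, eIF2Bgamma and eIF3d1, which gave 11 of 44 (25%) against 22.8% of all protein-coding genes. With the strongest peaks of replicate 1 alone the region count was 10 (22.7%, against 22.8%), and with those of replicate 2 alone it was 9 (20.5%, against 21.8%), so the members' share was then not above that of all genes. Median region lengths were 6968 bp in members and 7164 bp over all protein-coding genes. Any pooled candidate, optimal or weaker, lay within 1 kb of a start in 25 members (56.8%) against 57.3% of all protein-coding genes.

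**Figure D1:**
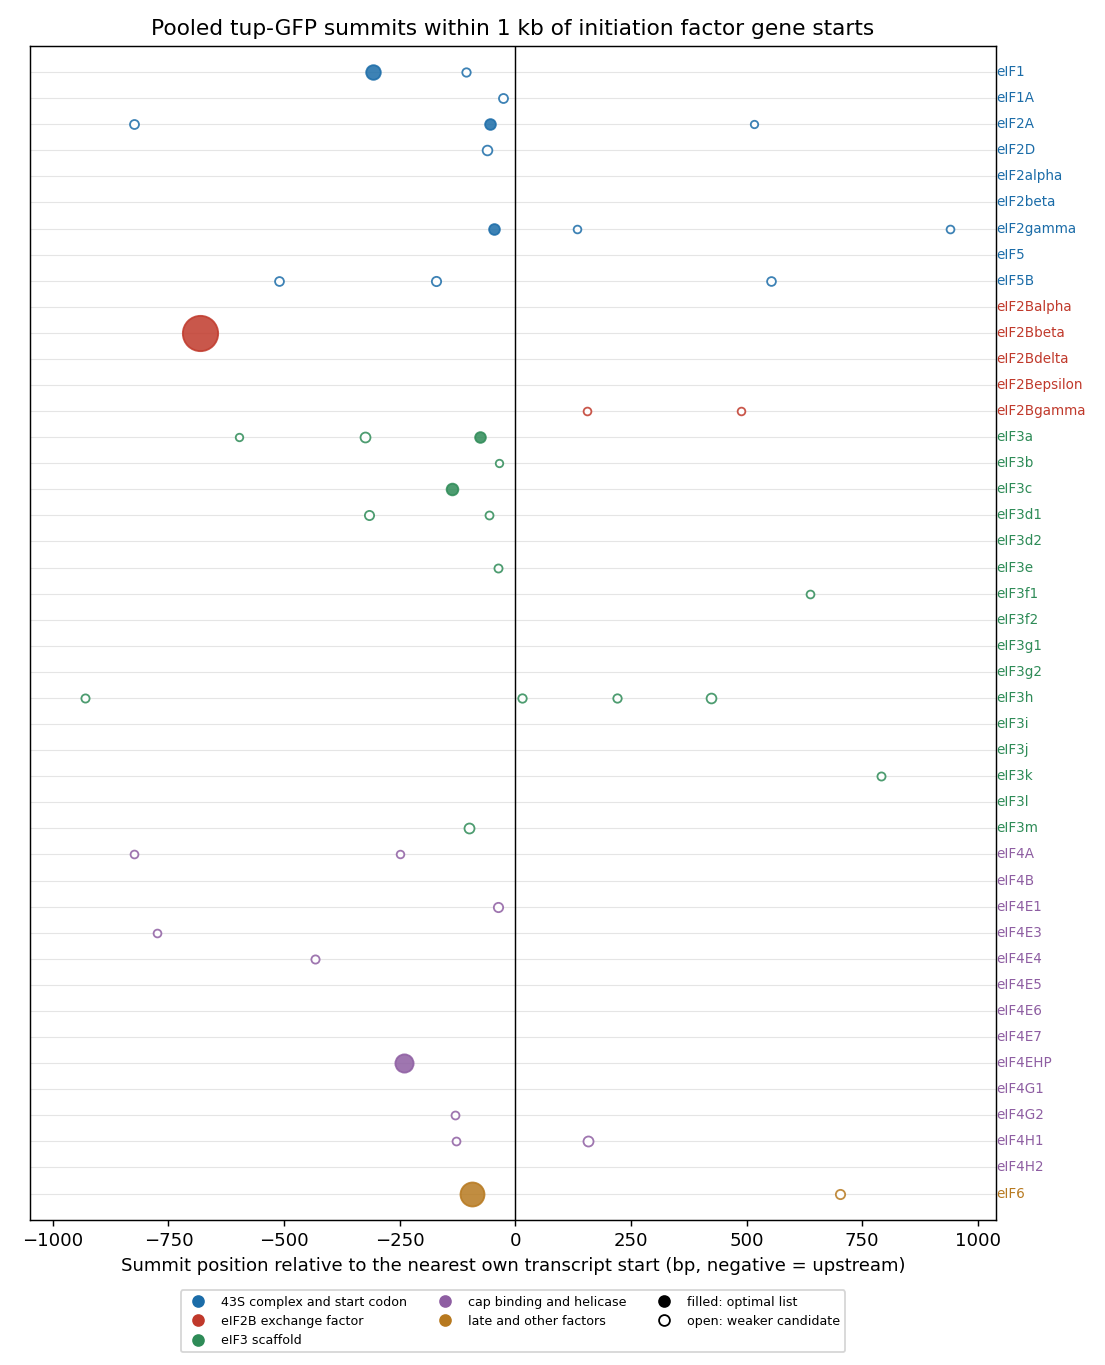
Positions of pooled candidate summits within 1 kb of the starts of all 44 genes, in bp from the nearest own start with upstream to the left. Point area grows with the caller's signal, filled points are in the optimal list, and colours mark the roles. The 8 filled points all lie upstream of the nearest own start. The summit of eIF2A lies within the gene, downstream of its outermost start.

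The windows of 101 bp around the summits are shown for 6 of the 8 start peaks, to set windows with a DRE beside windows with a homeodomain core. The other 2, at eIF3c and eIF6, hold neither and are not shown. They are read 5′ to 3′ on the strand of the initiation factor gene from the RefSeq copy of the assembly. Capitals mark TATCGATA, the DNA replication-related element (DRE) bound by the factor DREF, and the homeodomain cores TAATTA and TAATTG.
eIF1 (chr3L:3222983-3223083, plus strand): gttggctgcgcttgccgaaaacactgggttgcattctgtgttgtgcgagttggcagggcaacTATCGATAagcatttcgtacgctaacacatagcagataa
eIF2A (chr3L:21824861-21824961, plus strand): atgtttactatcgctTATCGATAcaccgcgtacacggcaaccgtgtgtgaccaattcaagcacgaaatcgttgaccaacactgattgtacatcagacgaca
eIF2gamma (chr3R:15263455-15263555, minus strand): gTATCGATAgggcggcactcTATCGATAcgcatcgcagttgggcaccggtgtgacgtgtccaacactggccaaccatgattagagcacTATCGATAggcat
eIF3a (chr3R:4433921-4434021, minus strand): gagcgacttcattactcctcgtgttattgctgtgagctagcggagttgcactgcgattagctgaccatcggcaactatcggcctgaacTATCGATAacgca
eIF2Bbeta (chrX:2703840-2703940, plus strand): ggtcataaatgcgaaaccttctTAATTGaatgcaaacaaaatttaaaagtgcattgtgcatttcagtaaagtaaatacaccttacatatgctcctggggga
eIF4EHP (chr3R:24109151-24109251, minus strand): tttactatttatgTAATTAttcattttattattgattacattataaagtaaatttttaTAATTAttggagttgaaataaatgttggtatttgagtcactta
The first 4 hold a DRE. The window of eIF2Bbeta holds TAATTG and that of eIF4EHP holds TAATTA 2 times, and neither holds a DRE. The eIF2gamma window holds 3 DREs, centred 92, 73 and 5 bp upstream of the gene's start. In eIF1 the DRE was centred 16 bp downstream of the summit, in eIF2A 31 bp upstream of it and in eIF3a 42 bp downstream. GC content of the windows ranged from 16.8% in eIF4EHP to 53.5% in eIF2gamma, with a median of 44.1% over the 8 start peaks, against 33.7% over all 2241 optimal peaks. The 2241 include peaks away from starts, and GC content over start peaks alone was not taken.

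A DRE stood in 4 of the 8 windows (50%), against 32 of 2241 optimal windows (1.43%) and 32 of the 1360 optimal windows within 1 kb of a protein-coding start (2.35%). The 4 belong to those 32. Among them, the peaks of eIF3a (signal 72.8), eIF2A (73.4) and eIF2gamma (74) lay close to the lowest optimal signal of 68.7. Those of eIF2gamma and eIF3a were outside the 2241 strongest candidates of each replicate. Optimal windows at cytosolic ribosomal protein genes held a DRE in 8 of 40 (20%), the eIF1 window among them because its peak is also that of RpL28. Windows at aminoacyl-tRNA synthetase genes held 0 of 7. Both strands were searched with an exact match, and a match describes the letters and not a bound site. TAATTA stood in 1 of 8 windows against 208 of 2241 (9.28%), and TAATTG in 1 of 8 against 234 (10.4%). The letters CTAATG, a core bound by Islet-type factors, stood in 0 of 8 against 102 (4.55%). GAGAG was in 0 of 8 against 227 (10.1%), CAGCTG in 0 against 95 (4.24%) and GGTCACACT, the core of the core-promoter element motif 1, in 0 against 8 (0.357%). Over the 1360 optimal windows near protein-coding starts, TAATTA stood in 9.71%, TAATTG in 10.1% and CTAATG in 3.16%. There, GAGAG stood in 8.82%, CAGCTG in 5.81% and GGTCACACT in 0.515%.

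The strongest peak among the members stood upstream of eIF2Bbeta, the gene of a regulatory subunit of the exchange factor. It lay at X 2703715 to 2704064 with a pooled signal of 1066, rank 3 of the optimal list. Replicate 1 gave 625 and replicate 2 gave 445, rank 3 in each. The summit was 681 bp upstream of eIF2Bbeta but 38 bp from the start of Ugalt, a UDP-galactose transporter gene on the opposite strand whose start lies 719 bp away. The peak thus sat at the Ugalt end of the shared intergenic stretch. Among the other exchange factor genes, eIF2Bgamma had an optimal peak (2R 15541169 to 15541552, signal 110, rank 991) 1300 bp upstream. That summit was 2 bp from the start of CG8187, inside its 5′ UTR, and 74 bp from the start of Vha36-1, a proton pump subunit gene. It ranked 827 in replicate 1 (signal 77.2) and 1933 in replicate 2 (signal 29.4). Within 1 kb, eIF2Bgamma itself had only weaker candidates, with signals of 24.4 and 23.4. The genes eIF2Balpha, eIF2Bdelta and eIF2Bepsilon had no pooled candidate within 1 kb. Opposite-strand starts lie 90 bp from eIF2Balpha, 58 bp from eIF2Bdelta and 107 bp from eIF2Bepsilon.

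The eIF6 peak came next, at 2R 23850283 to 23850532, with a signal of 477 and rank 34. It ranked 51 in replicate 1 (signal 259) and 27 in replicate 2 (signal 218). Its summit was 94 bp upstream of the eIF6 start and 65 bp from the start of asRNA:CR45928, within an exon of that antisense RNA gene and an intron of ytr. The DRE of the eIF6 promoter was centred 7 bp upstream of the start, outside the summit window.

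The peak at eIF4EHP, which in fly embryos represses cap-dependent translation with partners such as Bicoid, had a signal of 263 and rank 160 (3R 24109177 to 24109359). Replicates differed here. Replicate 1 had a signal of 207 at rank 91 on the same base, and replicate 2 had a signal of 35.2 at rank 1441, 94 bp away. A stronger replicate 2 candidate (signal 66.1, rank 427) lay 123 bp upstream of the start, whereas the pooled summit lay 241 bp upstream. The opposite-strand gene CG18428 starts 135 bp from the pooled summit. A further optimal peak of the gene (signal 95.5, rank 1275) was intronic, 9750 bp into the gene. It ranked 1814 in replicate 1 and 1337 in replicate 2, and the nearest start was that of Syx1A at 6553 bp. All other cap-binding and helicase genes lacked an optimal peak, so that this group had 1 of 13 members called within 1 kb, against 13.3% of all protein-coding genes.

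In the 43S complex and start codon group, 3 of 9 genes had an optimal summit within 1 kb (33.3%, interval 12.1 to 64.6), against 13.3% of all protein-coding genes. The eIF1 peak (3L 3222841 to 3223224, signal 159, rank 480) ranked 819 in replicate 1 (signal 77.4) and 371 in replicate 2 (signal 69.8). It lay 308 bp upstream of eIF1, which helps to recognise the start codon, and 73 bp from the start of RpL28, a large-subunit ribosomal protein gene on the other strand. The eIF2gamma peak (3R 15263313 to 15263696, signal 74, rank 1967) was centred 47 bp from 3 starts, those of eIF2gamma, the GTP-binding subunit of eIF2, of Su(var)3-9, a histone methyltransferase gene that shares its start, and of Set on the other strand. It ranked 3281 in replicate 1 (signal 38.5) and 2481 in replicate 2 (signal 25.5). The eIF2A peak (3L 21824719 to 21825102, signal 73.4, rank 1999) was the only start peak of the 8 with no other gene's start within 1 kb. Its summit was in the 5′ UTR of eIF2A, 54 bp upstream of the nearer of 2 annotated starts. It ranked 1583 in replicate 1 (signal 55.5) and 3636 in replicate 2 (signal 20.8). The subunit genes eIF2alpha and eIF2beta had no pooled candidate within 1 kb. The eIF2gamma peak lay equally close to starts of other genes, so it shows no difference among the 3 subunit genes of eIF2. The gene of the GTPase activator eIF5 had none in its whole region, although the homeobox gene exd starts 494 bp away on the other strand. The eIF5B gene, for the factor of subunit joining, had 3 weaker candidates at its start (signals 39.1 to 47) and an optimal peak of signal 70 and rank 2160 in an intron, 27751 bp downstream. The nearest start to that intronic summit was that of sty, 7917 bp away.

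Of the 16 eIF3 genes, eIF3a and eIF3c had optimal start peaks (12.5%, interval 3.5 to 36), against 13.3% of all protein-coding genes. The eIF3a peak (3R 4433779 to 4434162, signal 72.8, rank 2028) ranked 2612 in replicate 1 (signal 43.1) and 2332 in replicate 2 (signal 26.5). Its summit was 6 bp from the start of CG1074, within that gene's 5′ UTR, and 76 bp upstream of eIF3a. The eIF3c peak (2R 17665350 to 17665733, signal 92.1, rank 1360) was 136 bp upstream of the start and nearest to it. It ranked 842 in replicate 1 (signal 76.5), while replicate 2 had no candidate summit within 100 bp and its strongest candidate within 1 kb of the start had a signal of 17.4, at rank 5189. Upstream of eIF3d1 stood an optimal peak of signal 119.9 (rank 830), 1308 bp from the start and 164 bp from that of GILT2. It too had a replicate 1 candidate (signal 112, rank 386) and none in replicate 2. Both peaks thus rest on replicate 1 at this matching distance.

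**Figure D2:**
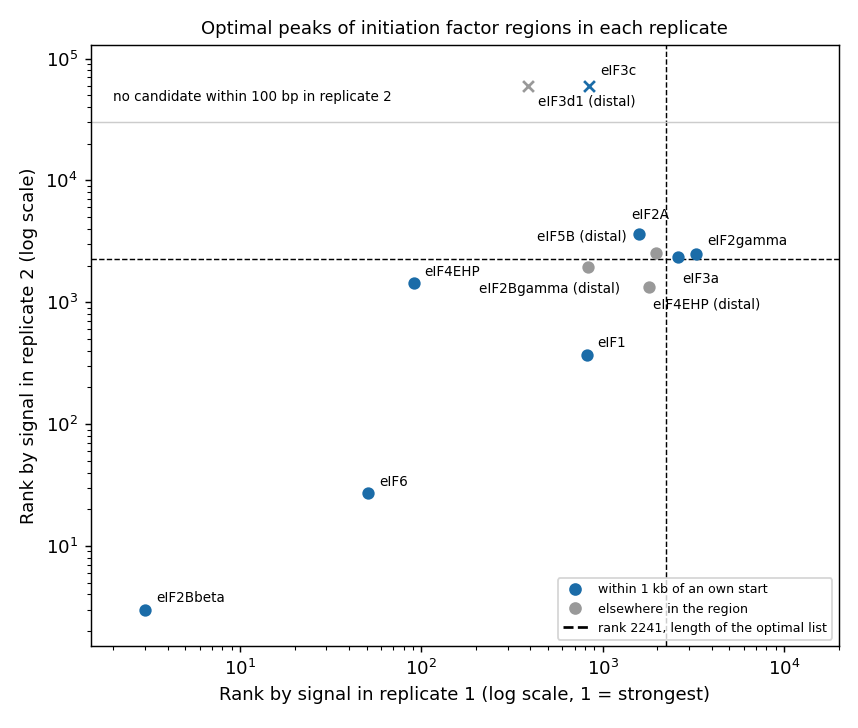
Rank by signal of the 12 optimal peaks of the members' regions in replicate 1 (x axis) and replicate 2 (y axis), both on log scales with 1 as the strongest. Blue points lie within 1 kb of an own start and grey points elsewhere in the region, and crosses mark the peaks of eIF3c and eIF3d1 that had no replicate 2 candidate. The eIF2Bbeta and eIF6 peaks rank high in both replicates, while eIF2gamma and eIF3a lie past rank 2241 in both.

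Each replicate was also taken alone at its 2241 strongest candidates. Replicate 1 had 7 members within 1 kb (15.9%) against 13.3% of all protein-coding genes, and replicate 2 had 7 (15.9%) against 12.6%. Of the 8 genes with an optimal start peak, 4 were in both sets (eIF1, eIF2Bbeta, eIF4EHP and eIF6), eIF2A and eIF3c were in that of replicate 1 alone, and eIF2gamma and eIF3a were in neither. In all, 5 members were in both sets (11.4%) against 8.86% of all protein-coding genes. The fifth was eIF3h, which had no optimal peak. Its strongest candidate lay 422 bp downstream of the start in replicate 1 (signal 68.4, rank 1055) but 11 bp downstream in replicate 2 (signal 40, rank 1161), and the pooled list gave signals of 55.7 and 34.1 there. The scaffold gene eIF3m and the non-canonical factor gene eIF2D were in the replicate 2 set alone, at ranks 2165 and 1885.

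All 8 start summits lay upstream of the nearest own start, as did 84.9% of the strongest start summits of the 1857 called protein-coding genes. Their median distance was 115 bp in members against 166 bp over those genes. The own start was the nearest of any gene, ties included, for eIF2A, eIF2gamma and eIF3c, 3 of 8 (37.5%), against 66.5% of the called protein-coding genes. Of the 8 genes, 7 (87.5%) have an opposite-strand start within 1 kb upstream of their outermost start, against 66.4% of the called protein-coding genes. Among members with such a start, 7 of 21 (33.3%) had an optimal summit within 1 kb, against 1233 of 5331 protein-coding genes (23.1%). Among members without one, 1 of 23 (4.35%) did, against 624 of 8637 (7.22%). The difference between arrangements was thus in the same direction in the members and in all protein-coding genes. A summit counted for every gene in reach, so genes with such a start can also count peaks at the neighbour's start. How much of the difference comes from this counting was not tested. Peaks between such starts cannot be assigned to either gene from these lists.

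**Figure D3:**
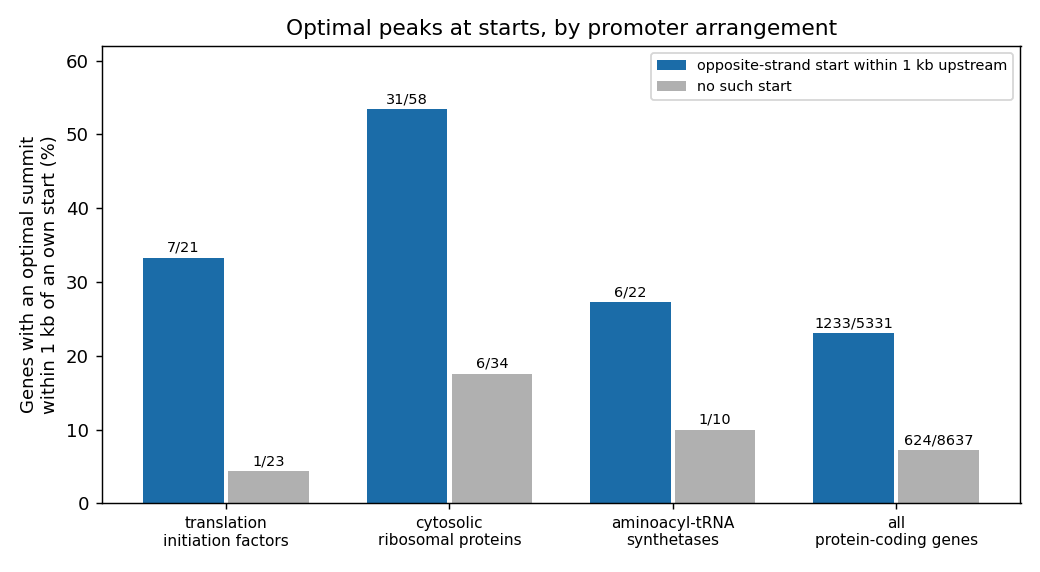
Share of genes with an optimal summit within 1 kb of an own start (y axis, percent), for genes with an opposite-strand start within 1 kb upstream (blue) and for the others (grey), with gene counts above the bars. In initiation factor genes the shares are 33.3% and 4.35%, and in all protein-coding genes 23.1% and 7.22%. A summit counts for every gene in reach, so blue bars can include peaks at the neighbour's start.

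Weaker pooled candidates stood within 1 kb of 17 further members, with a strongest signal from 20.7 in eIF3b to 59.7 in eIF4H1. Just below the lowest optimal signal were eIF4H1 (59.7, rank 2836), eIF3m (58.8, rank 2904), eIF3h (55.7, rank 3213) and eIF2D (53.8, rank 3398), and just above it were eIF3a (72.8), eIF2A (73.4) and eIF2gamma (74). Some lay close to the start. The eIF1A candidate was 26 bp upstream (signal 42.4) and that of eIF4E1, a cap-binding protein gene, 38 bp upstream (signal 47.6). That of the scaffold gene eIF3e was 37 bp upstream (signal 28.9, rank 13060). Others were far from it, such as that of eIF3k, 791 bp downstream (signal 29). The helicase gene eIF4A had only candidates of signal 25.1 and 22.6, below the median of all pooled candidates. The other 19 members had no pooled candidate within 1 kb. In replicate 2 alone eIF2alpha, eIF2Bdelta, eIF2Bepsilon, eIF3j and eIF4E6 had a candidate there with signals from 8.4 to 13.2, and eIF4G1 had one of 19.8 in replicate 1 alone. In 7 members the whole region held no pooled candidate (15.9%), against 16.2% of all protein-coding genes. These were eIF5, eIF2Balpha, eIF3g1, eIF3j, eIF4B, eIF4E6 and eIF4E7.

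**Figure D4:**
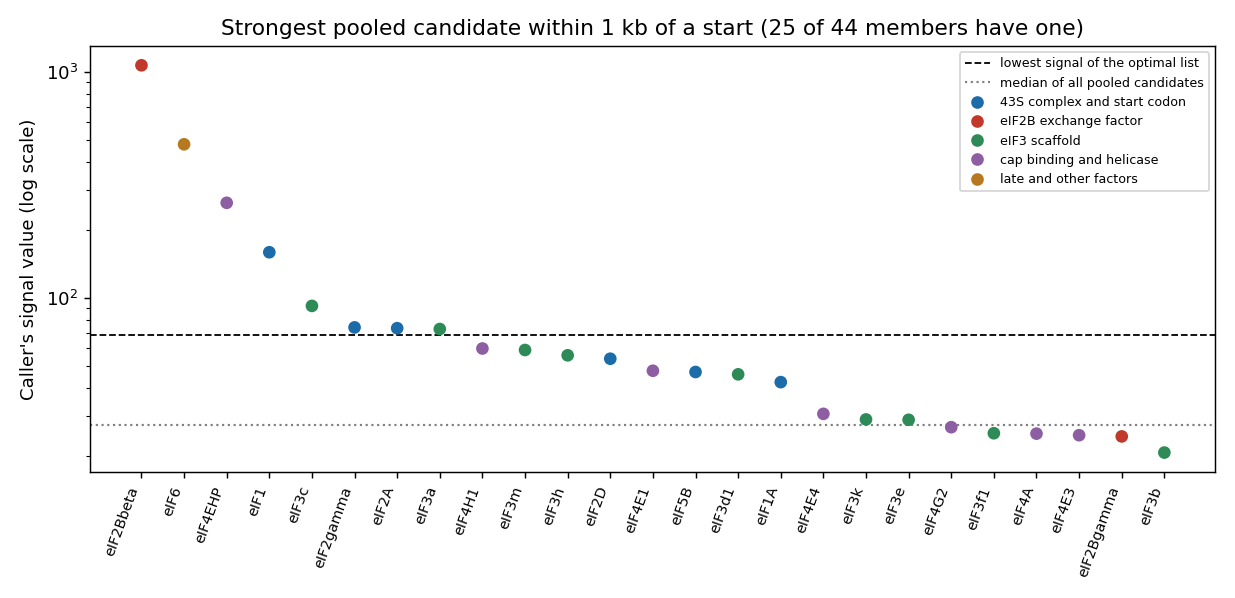
Signal of the strongest pooled candidate within 1 kb of a start (y axis, log scale) for the 25 members that had one, in order of signal and coloured by role. The dashed line is the lowest signal of the optimal list, 68.7, and the dotted line the median of all pooled candidates, 27.3. The 8 members above the dashed line run from 72.8 in eIF3a to 1066 in eIF2Bbeta.

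Several members are paralogues of one another. For eIF3d, eIF3f and eIF4H the first gene had a weaker candidate and the second had none: eIF3d1 reached a signal of 45.9, eIF3f1 25.2 and eIF4H1 59.7, while eIF3d2, eIF3f2 and eIF4H2 had no pooled candidate within 1 kb. Neither eIF3g1 nor eIF3g2 had one. For the scaffold eIF4G the order was the other way round, with a candidate of signal 26.8 at eIF4G2 and none at eIF4G1, which lies on chromosome 4. Among the numbered eIF4E genes, eIF4E1 (47.6) was followed by eIF4E4 (30.7) and eIF4E3 (24.7), and eIF4E5, eIF4E6 and eIF4E7 had none. None of the paralogues named here had an optimal summit within 1 kb, and eIF3d1 alone among them had one in its region. The cap-binding repressor gene eIF4EHP was not among those compared here, and it had an optimal start summit (signal 263).

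The promoters of the members, taken from 250 bp before to 50 bp after the outermost start, held a DRE in 12 of 44 (27.3%) against 1307 of 13968 protein-coding promoters (9.36%). A DRE was in 5 of the 8 members with an optimal start summit (eIF2gamma, eIF2Bbeta, eIF3a, eIF3c and eIF6), in 3 of the 17 with a weaker candidate and in 4 of the 19 with none. Only eIF2gamma and eIF3a had it both in this promoter and in the summit window. Over all protein-coding genes it was in 14.4% of those with an optimal start summit and in 6.45% of those with no candidate. A DRE promoter without any pooled candidate within 1 kb was that of eIF2alpha, shown as the counterpart to the DRE windows under peaks, with its DRE and motif 1 core in capitals.
eIF2alpha (chrX:16446944-16447243, minus strand): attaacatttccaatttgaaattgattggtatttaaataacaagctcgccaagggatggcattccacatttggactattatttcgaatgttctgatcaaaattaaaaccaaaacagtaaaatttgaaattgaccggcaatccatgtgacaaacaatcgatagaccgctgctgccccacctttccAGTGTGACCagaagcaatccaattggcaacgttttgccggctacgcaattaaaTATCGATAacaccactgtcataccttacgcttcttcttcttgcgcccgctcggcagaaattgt
The DRE is centred 9 bp upstream of the annotated start. The other DRE promoters without a candidate were those of eIF3l, eIF4B and eIF4E6.

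The TCT initiator, a pyrimidine-rich start element of ribosomal protein and other translation genes, was searched as CTCTTT or CTTTTT within 10 bp of the outermost start on the gene's strand. These letters were found at 3 of 44 members (6.82%), against 15 of 92 cytosolic ribosomal protein genes (16.3%) and 185 of 13968 protein-coding genes (1.32%). A match anywhere in the window counted, so it does not show an initiator at the annotated start. In the 3 members the match lies downstream of the annotated start base. The 3 windows of 21 bp are shown with the match in capitals.
eIF3g1 (chrX:2610326-2610346, minus strand): cgcggcagggtaacaCTCTTT
eIF3i (chr2L:4967765-4967785, minus strand): cacggtcacactgCTCTTTtg
eIF4A (chr2L:5981754-5981774, plus strand): gcaagatggagcCTCTTTtgc
None of the 3 genes had an optimal start summit, and only eIF4A had a pooled candidate within 1 kb.

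Genes that act beside the initiation factors were read from lists chosen with earlier results of these data known. Of 15 regulators of initiation, 6 (40%, interval 19.8 to 64.3) had an optimal summit within 1 kb of a start, against 13.3% of all protein-coding genes. They were Lk6, a kinase gene whose product acts on eIF4E (signal 744, 962 bp upstream), Thor, which encodes the eIF4E-binding protein (119.6, 36 bp upstream), pAbp, the poly(A)-binding protein gene (118, 469 bp downstream), the eIF2 kinase gene Gcn2 (79.6), MCTS1 (72.2) and the kinase gene S6k (70.5). The Gcn2 and MCTS1 summits were nearer to the starts of Ugt35D1 and rux. Of the 15 regulators, the strongest peaks of replicate 1 alone gave 3 (20%), against 13.3% of all protein-coding genes. Those of replicate 2 alone gave 6 (40%), against 12.6%. Of 7 elongation factor genes, eEF1gamma (signal 184) and eEF1alpha1 (signal 120.3) had one (28.6% of the genes). Of 4 termination and rescue genes, pelo did (signal 91.9), which is 25%. Both shares stand beside 13.3% of all protein-coding genes. With the strongest peaks of replicate 1 alone the counts were 2 and 3, and with those of replicate 2 alone 3 and 0. Beside the 18.2% of initiation factor genes, cytosolic ribosomal protein genes had one in 37 of 92 (40.2%, interval 30.8 to 50.4) and aminoacyl-tRNA synthetase genes in 7 of 32 (21.9%, interval 11 to 38.8). With the strongest peaks of replicate 1 alone, the shares were 33.7% of ribosomal protein genes and 28.1% of synthetase genes, against 13.3% of all protein-coding genes. Those of replicate 2 alone gave 50% and 12.5%, against 12.6%. Median signals of the strongest start peak were 125 in the 8 initiation factor genes, 119.7 in ribosomal protein genes, 119 in synthetase genes and 113 over the 1857 called protein-coding genes. No test of these differences was made.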

How the data were processed

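Per the labels, chromatin from embryos of a tup-GFP line was sheared by sonication to 200 to 800 bp and precipitated with anti-GFP. The authors deposited peak lists with a signal value, a -log10 q value and a summit offset per peak, called against a control alignment according to the text that accompanies the samples. The control was not analysed here. Caller, aligner and versions were not given in the sources used here, nor was the reproducibility threshold. Each summit offset was added to the peak start. Coordinates are dm6, counted from 1, with genes of Ensembl release 115 (5889 transposable elements left out) and sequence of the RefSeq copy of the same assembly. The dm3 lists were not used.

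Summits were counted within 1 kb of any own transcript start and from 5 kb upstream to the gene end, on the gene's strand, and a summit counted for every gene in reach. Replicate candidates were matched within 100 bp. Shares have Wilson 95% intervals. Motifs were exact matches on either strand. Python 3.11.15, pandas 2.3.3 and SciPy 1.17.1 were used, and the counting was tested on planted summits. Members and lists were chosen with earlier results of these data known. The rule named every member with an optimal summit, all others by role, and listed genes with a start summit. The name Tor matched no single gene and was left out.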

Additional observations from a re-analysis of the deposited data

How the results depend on the processing

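The count of 8 members with an optimal start summit was also 8 under any overlap of the peak (18.2%, against 13.9% of all protein-coding genes). It was 8 for the outermost start alone (18.2%, against 12%). At 500 bp it was 7 (15.9%, against 11.7%) and at 2 kb it was 11 (25%, against 16.5%). All of these stayed within 1.5 times of 8. Each replicate left out gave a lowest and highest count of 7 and 7. The count was 4 (9.09%) for peaks above the median optimal signal, where the share of all protein-coding genes was 7.68%, and 3 (6.82%) when a summit counted for the nearest start alone, against 9.03% of all protein-coding genes, so the members' share then lay below that of all genes. For the region, the count of 11 was 6 above the median signal (13.6%, against 13.1%), 3 in the gene body alone (6.82%, against 7.04%) and 20 with 10 kb upstream (45.5%, against 30.4%). It was 9 without replicate 1 (20.5%, against 21.8%) and 10 without replicate 2 (22.7%, against 22.8%). Members with any candidate numbered 27 without replicate 1 (61.4%, against 58.1%) and 22 without replicate 2 (50%, against 56.6%), so their share was above or below that of all genes depending on the replicate. The share of all protein-coding genes at 13.3% was 11.7% at 500 bp and 16.5% at 2 kb, and 12.6% to 13.3% with a replicate left out. The median signal of 125 was 92.1 at 500 bp, where the eIF2Bbeta peak is lost. The cause of these changes was not tested. The unknown depth limits statements on members without a candidate to these lists. No paired analysis was possible because there is 1 group.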

Other observations

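The wider upstream window brought in 9 members with an optimal summit 5 to 10 kb upstream and none from 5 kb upstream to the gene end. They were eIF2D, eIF2beta, eIF2Bdelta, eIF3g1, eIF3h, eIF3i, eIF3j, eIF4A and eIF4E1. Past its gene end, eIF3g1 also had an optimal summit between 1 and 2 kb from its start. For 0 of the 9 upstream summits was the member's own start the nearest. The same count was not made over all protein-coding genes, so it shows no trait particular to the members. The strongest of the 9 summits, 9020 bp upstream of eIF3j (signal 572, rank 20), was 169 bp from the start of Pal1. That of eIF3i (signal 157) was 91 bp from the start of CG3792. That of eIF4A (signal 109.8), 7366 bp upstream, was 3373 bp from the nearest start, while the other summits lay within 409 bp of one.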
